A study of Caenorhabditis elegans with 15 samples.

Results

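The response that Ag and SiO2 nanoparticle exposure had in common was examined by setting all exposed worms together against the unexposed ones. RNA of whole C. elegans was sequenced from 5 samples exposed to silver (Ag) nanoparticles at 10 µg/ml, 5 samples exposed to silicon dioxide (SiO2) nanoparticles at the same concentration, and 5 Control samples that received no particles. These are all 15 samples of the series, and the 10 exposed samples were compared with the 5 Control samples. Every worm was of N2, the wild-type laboratory strain, raised on the bacterium E. coli OP50 at 350 to 400 larvae per well for 72 h at 21 °C and collected on day 1 of adulthood. The labels place the exposure at the adult stage, whereas the methods describe larvae kept with the particles from the first larval stage onward, so how long the worms were exposed is not settled by the sources used here. Replicates are numbered without a break from 1 to 15, with Control 1 to 5, Ag 6 to 10 and SiO2 11 to 15. Worms grew in individual wells, but whether the wells of a group were set up on different days is not given in the sources used here, so p-values measure the spread between these samples. Of the 46778 genes in the count table, 19595 had a total of at least 10 counts over the 15 samples and were tested.

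Particles mixed with bacterial food enter the worm through the mouth and reach the intestine, which in C. elegans is the organ of digestion, fat storage, fat breakdown and yolk production, and the first line of defence against swallowed microbes. The defence includes large families of secreted proteins, among them C-type lectins, whose fold binds carbohydrates in many animals. Metals induce metallothioneins, small cysteine-rich proteins that bind them. A hermaphrodite first makes a limited stock of sperm and then switches to oocytes, so its RNA at the start of adulthood holds products of both.

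Expression is given as CPM, the reads of a gene scaled to a common library size after TMM normalization, and differences as log2 fold changes of exposed over Control with their standard error (SE). The reads assigned to genes ranged from 16560734 to 24296570 per sample, so 1 CPM stands for roughly 17 to 24 reads. A gene was called changed where the edgeR quasi-likelihood test gave a Benjamini-Hochberg adjusted p under 0.05 over all 19595 genes. A called gene was counted in the common response where its fold changes in Ag and in SiO2 had the same sign and the smaller was at least 0.5 of the larger on the log2 scale. Both fold changes are taken against the same Control samples, so they are given side by side and their likeness is not used as evidence.

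In the principal component analysis PC1 held 24.4% and PC2 16.6% of the variance. Exposure accounted for 16.3% of the total variance of the tested genes, with a pseudo-F of 2.53 (exact permutation p = 0.00167 for 10 and 5 samples, where the smallest possible p is 0.000333). Most of the variance therefore lay among samples of the same side. Ag replicate 8 stood apart, with a PC1 score of -72.1, where the other Ag samples had -43.9 to 3.82, the SiO2 samples -27 to 25.1 and the Control samples 6.95 to 38. It was also the smallest library. The pseudo-F was 2.46 without it (exact permutation p = 0.0005, the smallest possible) and lowest without Control replicate 3, at 2.07 (exact permutation p = 0.00799).

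The pooled test called 17 of 19595 genes, 0.0868% of those tested. Of these, 4 were higher in exposed worms (0.0204%) and 13 were lower (0.0663%). Lower genes also prevailed with RLE normalization (10 higher and 19 lower), library size scaling (7 and 14) and Kallisto estimates (9 and 20). The same held for filterByExpr (9 and 19) and a minimum total of 3 (5 and 15) or 1 (4 and 15). This balance was the reverse in some other settings, with 595 higher and 268 lower by the likelihood ratio test and 810 higher and 426 lower with DESeq2. It was also the reverse without Ag replicate 6, with 31 higher and 17 lower. At an unadjusted p under 0.05 there were 4038 genes (20.6%), 2332 higher (11.9%) and 1706 lower (8.71%). Of the 17 called genes, 16 met the rule for the common response, 4 higher and 12 lower. In 15 of the 17 the 10 exposed samples did not overlap with the 5 Control samples, which held for 0.888% of all tested genes (0.327% with exposed samples higher and 0.561% with them lower). The 17 genes were selected by a test on these same values, so their separation is not separate evidence. The change was at least 2-fold in 10 of the 17.

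The number of calls was not stable when single samples were left out. Without Control replicate 1, 2, 3 or 5 no gene was called, without Control replicate 4 only the pseudogene WBGene00014770 was called, and without SiO2 replicate 13 the count was 3. Leaving out Ag replicate 6 gave 48 calls, Ag replicate 8 gave 65, SiO2 replicate 15 gave 59 and SiO2 replicate 12 gave 86. The fold changes themselves moved little: that of acs-2 stayed between 1.79 and 2.12 and that of clec-174 between -1.89 and -1.63. At an unadjusted p under 0.05 the count was between 2880 and 4853 with any 1 sample left out.

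**Figure D1:**
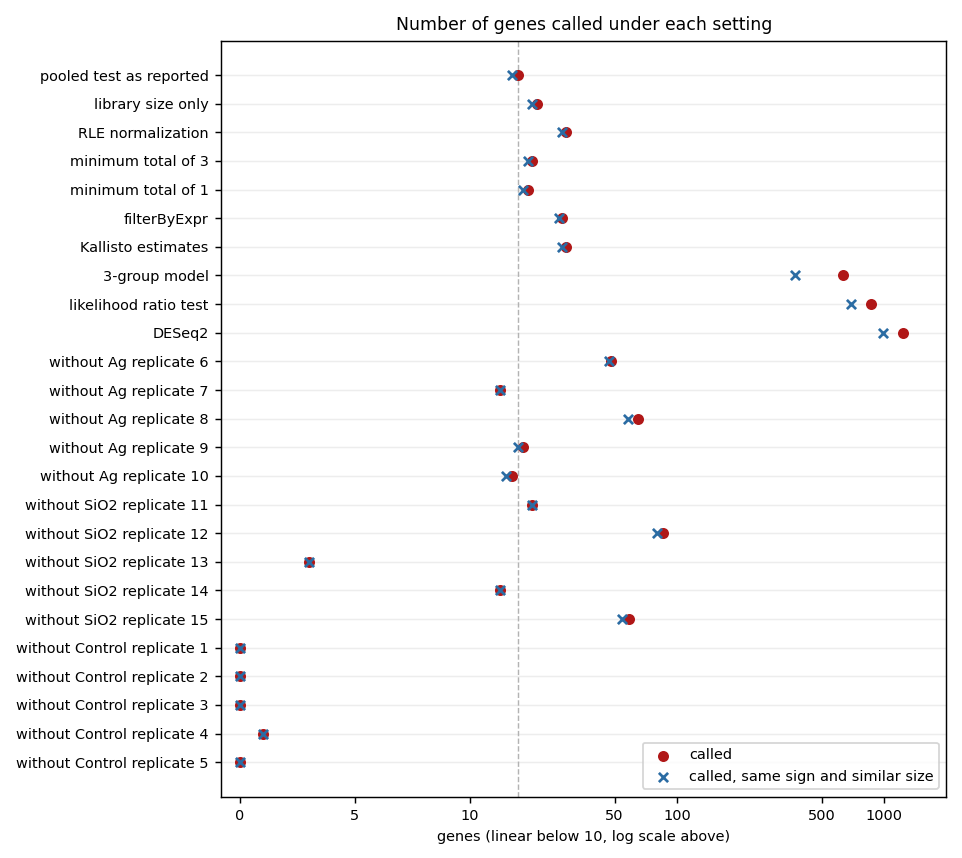
Number of genes called exposed over Control (red points) and number of these with the same sign and similar size in Ag and SiO2 (blue crosses) under each setting, on an axis that is linear below 10 and logarithmic above. The dashed line marks the 17 calls of the pooled test, which drop to 0 or 1 without any single Control sample and reach 631 in the 3-group model and 1236 with DESeq2.

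The 4 genes that rose in both exposures included 2 enzymes of lipid metabolism. acs-2 encodes an acyl-CoA synthetase that activates fatty acids for mitochondrial oxidation and is known for its induction in fasted worms. It lies on chromosome V of WBcel235 at 15567394-15569897. Its level was 278, 245, 729, 520 and 386 CPM in the 5 Ag samples and 171, 109, 259, 391 and 318 CPM in the SiO2 samples, against 99.3, 63.5, 70.6, 106 and 85.5 CPM in Control. The lowest exposed sample, SiO2 replicate 12, was just above the highest Control sample. Over all exposed samples acs-2 averaged 341 ± 179.5 CPM (SD, n = 10), against 85.0 ± 18.2 CPM in Control (SD, n = 5), a 4.01-fold difference (log2 2.00, SE 0.34, edgeR adjusted p = 0.0232). Taken singly, the log2 fold change was 2.34 in Ag and 1.55 in SiO2.

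sptl-2 encodes a subunit of serine palmitoyltransferase, the enzyme of the first step of sphingolipid synthesis, and lies on chromosome V at 8017207-8021715. It had 28.3, 29.1, 34.8, 36.6 and 32.8 CPM in Ag and 33.3, 24.1, 30.5, 30.7 and 31.3 CPM in SiO2, against 20.9, 21.5, 20.2, 23.0 and 21.5 CPM in Control. The Control samples differed by less than 3 CPM, and all exposed samples were above them. The rise was small, 1.45-fold (log2 0.54, SE 0.09, edgeR adjusted p = 0.0299), with 0.59 in Ag and 0.48 in SiO2.

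ZC250.4 (chromosome V, 5812316-5813137) had 14.2, 13.2, 15.1, 9.72 and 10.3 CPM in Ag and 9.05, 7.12, 11.2, 14.5 and 10.7 CPM in SiO2, against 5.95, 6.26, 5.33, 6.05 and 5.71 CPM in Control. Its pooled fold change was 1.96 (log2 0.97, SE 0.16, edgeR adjusted p = 0.0232), and SiO2 minus Ag was -0.26 with a 95% interval of -0.59 to 0.08 on the log2 scale. D1086.3 (chromosome V, 14092792-14093986) had 13.2, 10.5, 16.4, 9.83 and 9.88 CPM in Ag and 6.36, 5.53, 6.74, 9.15 and 6.91 CPM in SiO2, against 4.96, 3.66, 2.23, 2.29 and 2.94 CPM in Control. Both exposures lay above Control, and every Ag sample was above every SiO2 sample. The pooled log2 fold change was 1.55 (SE 0.26, edgeR adjusted p = 0.0232). D1086.3 was among the genes that also differed between the particles, with SiO2 minus Ag at -0.79 (edgeR adjusted p = 0.0433). No function is given here for either gene, since they are known only by their sequence names.

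**Figure D2:**
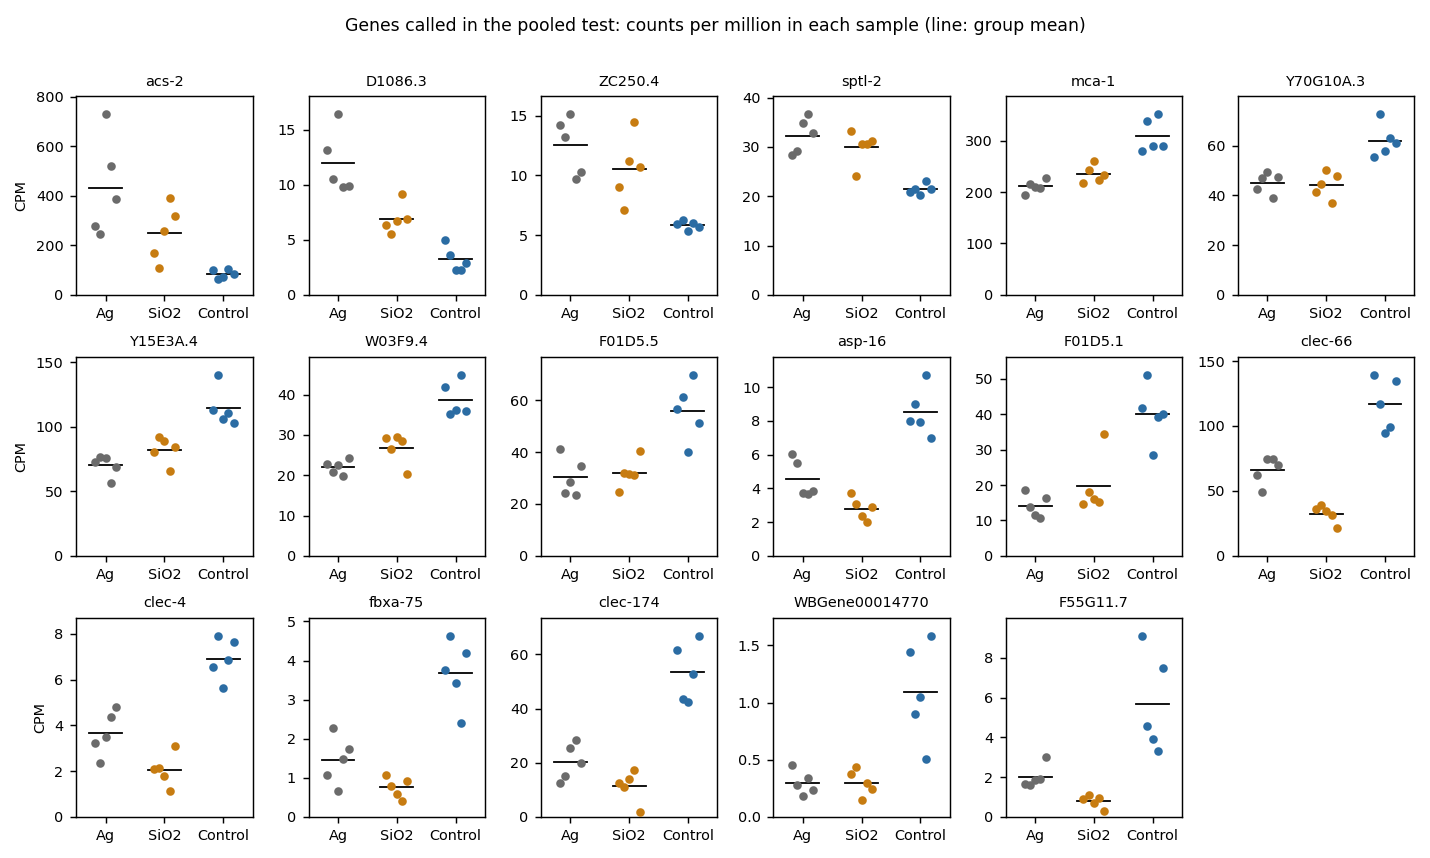
Expression in CPM of the 17 called genes in each Ag, SiO2 and Control sample (points, 5 per group) with the group mean (line), ordered from the most positive to the most negative pooled log2 fold change. In 15 of the 17 panels no exposed sample overlaps Control, and F01D5.1 and F01D5.5 are the exceptions. The genes were selected by a test on these same values.

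Of the 13 genes that fell, 3 were C-type lectins. clec-174 (chromosome IV, 3940259-3941708) had 12.5, 15.1, 25.6, 28.3 and 20 CPM in Ag and 12.6, 10.9, 14.0, 17.4 and 1.65 CPM in SiO2, against 61.8, 43.5, 42.3, 52.7 and 66.7 CPM in Control. SiO2 replicate 15 was far below the rest, and even the highest exposed sample was well under the lowest Control sample. The level was 3.39-fold lower in exposed worms (log2 -1.76, SE 0.33, edgeR adjusted p = 0.0488), with -1.40 in Ag and -2.24 in SiO2. clec-4 (chromosome II, 12578331-12581113) had 3.21, 2.37, 3.47, 4.38 and 4.79 CPM in Ag and 2.1, 2.15, 1.77, 1.11 and 3.11 CPM in SiO2, against 6.55, 7.89, 5.65, 6.86 and 7.64 CPM in Control. Its pooled log2 fold change was -1.28 (SE 0.24, edgeR adjusted p = 0.0466).

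clec-66 (chromosome II, 12904398-12906644) was the called gene that did not meet the size rule. It had 62.6, 49.2, 74.6, 74.4 and 69.9 CPM in Ag and 36.1, 39.2, 34.6, 31.1 and 21.7 CPM in SiO2, against 139, 117, 94.7, 99.1 and 135 CPM in Control. The groups were thus fully ordered, with SiO2 lowest and Ag between SiO2 and Control. The log2 fold change was -0.82 in Ag (edgeR adjusted p = 0.00548) and -1.85 in SiO2 (edgeR adjusted p = 1.2e-05), a ratio of 0.446, and SiO2 minus Ag was -1.02 (edgeR adjusted p = 0.000874). The ratios of the 16 common genes ran from 0.533 to 0.997.

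Of the genes that fell, F55G11.7 (chromosome IV, 12960436-12962155) did so by the largest factor. It had 1.67, 1.58, 1.86, 1.88 and 3.00 CPM in Ag and 0.916, 1.11, 0.689, 0.938 and 0.292 CPM in SiO2, against 9.08, 4.56, 3.92, 3.30 and 7.47 CPM in Control. The pooled difference was 4.07-fold (log2 -2.03, SE 0.34, edgeR adjusted p = 0.0232), and every SiO2 sample was below every Ag sample (SiO2 minus Ag -1.32, edgeR adjusted p = 0.041). Its neighbour F55G11.6 was in the common set of the 3-group model described further on. fbxa-75 (chromosome III, 1303714-1305461), of the F-box A family that supplies substrate adaptors of ubiquitin ligases, had 1.08, 2.28, 0.659, 1.48 and 1.73 CPM in Ag and 1.08, 0.795, 0.591, 0.411 and 0.924 CPM in SiO2, against 3.77, 4.62, 3.42, 2.41 and 4.19 CPM in Control (log2 -1.73, SE 0.29, edgeR adjusted p = 0.0232). asp-16 (chromosome V, 19039030-19042605), of the aspartyl protease family, had 6.01, 5.53, 3.71, 3.64 and 3.87 CPM in Ag and 3.72, 3.06, 2.36, 1.99 and 2.87 CPM in SiO2, against 7.99, 9.02, 7.93, 10.7 and 6.96 CPM in Control. It fell 2.31-fold (log2 -1.21, SE 0.21, edgeR adjusted p = 0.0232).

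A pair of genes from a single locus fell together. F01D5.1 and F01D5.5 lie on the minus strand of chromosome II at 13996958-13997581 and 14001686-14002300. F01D5.1 had 18.5, 13.9, 11.4, 10.6 and 16.2 CPM in Ag and 14.6, 18, 16, 15.1 and 34.5 CPM in SiO2, against 41.8, 51, 28.6, 39.1 and 40.2 CPM in Control. Only SiO2 replicate 15 reached into the range of Control. F01D5.5 had 41.2, 24.3, 28.4, 23.4 and 34.6 CPM in Ag and 24.6, 31.8, 31.4, 31 and 40.5 CPM in SiO2, against 56.7, 61.1, 40.0, 69.6 and 51.3 CPM in Control, where Control replicate 3 was within the exposed range. The pooled log2 fold changes were -1.25 (SE 0.20) and -0.84 (SE 0.14), both with an edgeR adjusted p of 0.0232. Of the genes between and beside them, F01D5.3 had a log2 fold change of -0.33 (edgeR adjusted p = 0.49), F01D5.2 of -0.35 (edgeR adjusted p = 0.745) and F01D5.6 of -0.14 (edgeR adjusted p = 0.774), and none of the 6 other F01D5 genes tested passed the test. Since F01D5.2 was below 1 CPM in every sample, its value is imprecise. These neighbours were picked after the values of the pair were seen.

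mca-1, which encodes a plasma membrane calcium pump, changed by a small and even amount. It had 195, 215, 210, 208 and 228 CPM in Ag and 217, 243, 261, 223 and 234 CPM in SiO2, against 279, 339, 290, 351 and 290 CPM in Control. The highest exposed sample was below the lowest Control sample, and the pooled difference was 1.39-fold (log2 -0.47, SE 0.08, edgeR adjusted p = 0.0232; chromosome IV, 9625909-9634948). Of the other genes that fell, W03F9.4 (chromosome V, 147521-151388) had 19.7 to 24.4 CPM in Ag and 20.3 to 29.6 CPM in SiO2, against 35.1 to 44.8 CPM in Control (log2 -0.67). Y15E3A.4 (chromosome X, 15330964-15333960) had 56.3 to 76.7 CPM in Ag and 66.1 to 91.8 CPM in SiO2, against 103 to 140 CPM in Control (log2 -0.58). Y70G10A.3 (chromosome III, 10239104-10245073) had 38.9 to 49.3 CPM in Ag and 37.1 to 50.2 CPM in SiO2, against 55.5 to 72.5 CPM in Control (log2 -0.47). It overlaps div-1 on the other strand, and without stated strand use in counting reads of both cannot be told apart. The annotated pseudogene WBGene00014770 (chromosome V, 12917450-12918902) was at 0.18 to 0.452 CPM in Ag and 0.148 to 0.437 CPM in SiO2, against 0.508 to 1.58 CPM in Control, and rests on few reads.

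Each of the 17 genes had an edgeR adjusted p under 0.05 against Control in Ag alone and in SiO2 alone. The genes were chosen on these same samples with the same Control, so this is not separate evidence. The change was larger in Ag for 10 of the 17 and larger in SiO2 for 7, and these 7 were all among the genes that fell. A direct difference between SiO2 and Ag passed the test in 3 of the 17, namely D1086.3, clec-66 and F55G11.7, against 672 of all tested genes (3.43%). The others are not shown to be equal. For acs-2, SiO2 minus Ag was -0.79 (edgeR adjusted p = 0.148), with a 95% interval, not adjusted for the number of genes, of -1.39 to -0.19 on the log2 scale. For Y70G10A.3 the interval was -0.23 to 0.18, and for F01D5.5 it was -0.27 to 0.40.

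The calls nearest to the threshold were Y70G10A.3, clec-66, clec-4 and clec-174, with adjusted p-values of 0.0466 to 0.0488 in edgeR. Just outside, 7 genes shared an adjusted p of 0.0509. Among them amt-1, of the ammonium transporter family, had 24.3 to 30.7 CPM in Ag and 19.4 to 27.7 CPM in SiO2, against 13.0 to 17.9 CPM in Control (log2 0.63). chkr-1 had a log2 fold change of 1.19 and fbxa-6 of -0.55. clec-12 was at -0.95 in the pooled test, with nearly the same change in Ag (-0.95) and in SiO2 (-0.95). An adjusted p under 0.1 was reached by 779 genes, 506 higher and 273 lower, of which 643 had the same sign and a similar size in each exposure.

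In the pooled test any difference between Ag and SiO2 adds to the spread of the exposed group. A model with 3 groups, in which the mean of Ag and SiO2 was compared with Control and the spread was taken within groups, called 631 genes (3.22%), 326 higher (1.66%) and 305 lower (1.56%). All 17 genes of the pooled test were among them. In 625 of the 631 the fold changes of Ag and SiO2 had the same sign, and 373 (1.9%) also met the size rule, 224 higher (1.14%) and 149 lower (0.76%). Among the 258 that did not, the larger change was in Ag for 191 and in SiO2 for 67. Of the 373 genes, 5 still differed between SiO2 and Ag by the direct test (edgeR adjusted p under 0.05), against 3.43% of all tested genes. The size rule itself removes many such genes, and a gene that meets it is not shown to change equally. The 224 higher genes had a median log2 fold change of 1.08 and 125 of them were at least 2-fold higher, whereas the 149 lower genes had a median of -0.50 and 24 of them were at least 2-fold lower. The higher genes were weakly expressed, at a median of 3.99 CPM, against 25.7 CPM for the lower genes and 8.40 CPM for all tested genes. These counts also depended on single samples. The 3-group model called 105 genes without Control replicate 3, 160 without Control replicate 4, 161 without Control replicate 2, 317 without Ag replicate 7, 334 without Control replicate 5 and 397 without SiO2 replicate 13. The genes of similar size numbered 51, 75, 81, 153, 194 and 234 in the same order. Of these, 203 were left without SiO2 replicate 14 and 243 without SiO2 replicate 12, while there were 560 without Ag replicate 6. Counts of the 3-group model given below are subject to the same limit.

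**Figure D3:**
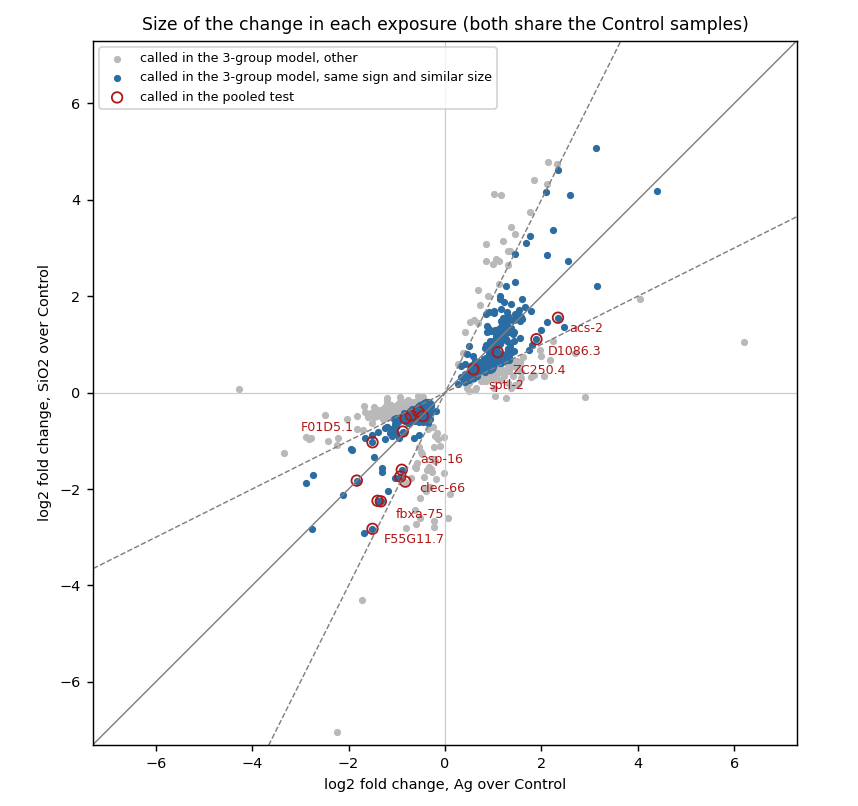
Log2 fold change over Control in Ag (horizontal axis) and in SiO2 (vertical axis) for the 631 genes called in the 3-group model, with the 373 of the same sign and similar size in blue, the other 258 in grey and the 17 calls of the pooled test circled in red. The solid line marks equal change and the dashed lines a ratio of 0.5, and the shared Control samples place points along the diagonal in part by construction.

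Gene groups were described by the number of members called in the 3-group model and by the median pooled log2 fold change, which was 0.01 over all tested genes. Of all tested genes 50.9% had a positive pooled fold change. The groups were collected by gene symbol.

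Among the lists with at least 10 tested genes, those of sperm had the highest pooled medians. The major sperm proteins, which form the cytoskeleton that moves the worm's crawling sperm and also signal to oocytes, had 28 tested genes of 31 in the table. All 28 had a positive fold change, with a median of 1.15 and nearly equal medians of 1.15 in Ag and 1.13 in SiO2. Of the 28, 13 were called higher, against 1.66% of all tested genes, all 13 of similar size in both exposures. The summed level of the 28 genes was 82.1, 161, 365, 150 and 118 CPM in Ag and 158, 235, 202, 169 and 98.6 CPM in SiO2, against 63.4, 110, 55.2, 103 and 62.0 CPM in Control. Ag replicate 8 was by far the highest, and Ag replicate 6 and SiO2 replicate 15 lay within the range of Control. An example is msp-49, with 2.17, 4.00, 7.37, 3.07 and 3.99 CPM in Ag and 5.01, 6.04, 6.10, 5.04 and 3.36 CPM in SiO2, against 1.44, 2.25, 1.59, 2.58 and 1.19 CPM in Control (3-group log2 1.33, edgeR adjusted p = 0.0155). msp genes are near-identical copies, so how reads were split among them is uncertain. With the Kallisto estimates 10 of the msp genes were called, and the summed level was 91.3 to 445 CPM in exposed samples, against 56.6 to 114 CPM in Control. The median stayed between 0.96 and 1.28 when single samples were left out or another scaling was used. The number called was 0 without Control replicate 3, between 1 and 7 without any other Control sample, Ag replicate 7 or SiO2 replicate 12, 13 or 14, and 24 without Ag replicate 6.

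The spermatogenesis-defective (spe) genes, named for mutants that make faulty sperm, pointed the same way. All 29 had a positive fold change (median 0.71, 0.68 in Ag and 0.87 in SiO2), and their summed level did not overlap between groups, with 151 to 207 CPM in Ag and 151 to 194 CPM in SiO2, against 125 to 142 CPM in Control. Of the 29, 17 passed an unadjusted p of 0.05 as higher (58.6%, against 11.9% of all tested genes). In the 3-group model spe-6 and spe-41 were called higher, against 1.66% of all tested genes. spe-6, a kinase of sperm maturation, had 4.02, 4.09, 5.21, 4.21 and 3.70 CPM in Ag and 2.96, 3.70, 3.64, 4.11 and 2.33 CPM in SiO2, against 2.43, 1.58, 1.91, 2.07 and 2.32 CPM in Control (3-group log2 0.87, edgeR adjusted p = 0.0119). spe-41, a calcium-permeable channel of the sperm membrane, had 3.41 to 5.29 CPM in Ag and 1.51 to 4.49 CPM in SiO2, against 1.46 to 2.15 CPM in Control (3-group log2 1.11, edgeR adjusted p = 0.0132). In RNA of whole worms, more cells of a type and more RNA per cell cannot be told apart.

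Other tissues of the worm were followed by marker lists, whose members all reached the count minimum. The 7 sperm markers summed to 14.3 to 59.4 CPM in Ag and 18.1 to 40.8 CPM in SiO2, against 10.4 to 22 CPM in Control, with 7 of 10 exposed samples above all Control samples. Several of these markers, such as msp-10, are also members of the sperm lists above, so their sum is not separate evidence. The 7 germ line markers summed to 960.0 to 1650.0 CPM in Ag and 644 to 1490.0 CPM in SiO2, against 585 to 1030.0 CPM in Control. All 7 had a positive fold change (median 0.52). Of the 7, 1 was called higher in the 3-group model, against 1.66% of all tested genes, namely glh-1, a P-granule helicase. For the 8 oocyte markers the medians were 0.53 in Ag and 0.10 in SiO2. The 7 intestinal markers had a median of 0.03, the 5 body wall muscle markers of -0.16 and the 6 epidermal markers of -0.07. The 6 neuronal markers were all negative (median -0.21), and so were the 7 early embryo markers (median -0.65), whose sum was 2.21 to 5.37 CPM in Ag and 3.84 to 6.39 CPM in SiO2, against 5.56 to 7.98 CPM in Control. The part that a different make-up of the worms had in the results was not tested.

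**Figure D4:**
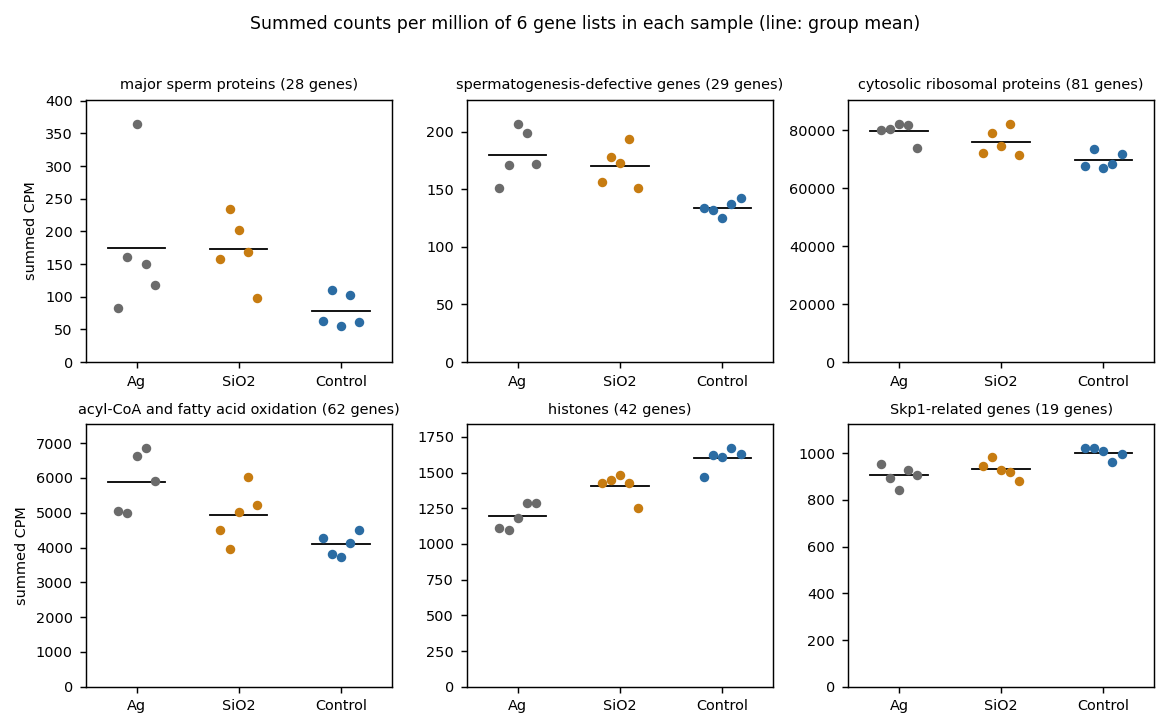
Summed CPM of the tested members of 6 gene lists in each Ag, SiO2 and Control sample (points) with the group mean (line). The spe genes do not overlap between exposed samples and Control, while the major sperm proteins, ribosomal proteins, fatty acid oxidation genes, histones and Skp1-related genes overlap in 1 or 2 exposed samples. Much of the histone sum is the level of his-24.

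Besides acs-2, other genes of fatty acid oxidation and acyl-CoA metabolism were higher. Of 62 tested, 8 were called higher and none lower, against 1.66% and 1.56% of all tested genes, and 6 of the 8 were of similar size in both exposures. At an unadjusted p under 0.05, 24 were higher (38.7%, against 11.9% of all tested genes) and 5 lower (8.06%, against 8.71%). The median of the list was small (0.13, with 0.20 in Ag and 0.09 in SiO2). The summed level of the list was 5050, 4990, 6640, 6850 and 5900 CPM in Ag and 4510, 3970, 5010, 6040 and 5210 CPM in SiO2, against 4270, 3820, 3730, 4140 and 4510 CPM in Control. This sum leans on a few strongly expressed genes. The highest of the called members was acs-19, at a mean of 761 CPM over the 15 samples (3-group log2 1.03). hacd-1, a hydroxyacyl-CoA dehydrogenase, had 432, 428, 611, 565 and 451 CPM in Ag and 321, 190, 357, 393 and 352 CPM in SiO2, against 283, 177, 172, 117 and 262 CPM in Control (3-group log2 0.99, edgeR adjusted p = 0.014). acdh-1, an acyl-CoA dehydrogenase of the propionate breakdown route that responds strongly to diet, had 25.9, 22, 48.3, 63.8 and 33.4 CPM in Ag and 6.52, 3.98, 11.1, 53.6 and 26.2 CPM in SiO2, against 11.2, 1.35, 2.23, 1.44 and 5.77 CPM in Control. SiO2 replicates 11, 12 and 13 were within the range of Control, and the adjusted p was 0.0271 in edgeR (3-group log2 2.67). acs-11 had nearly the same change in Ag (0.33) and SiO2 (0.33), and its exposed samples, at 106 to 131 CPM, all lay above Control, at 79.0 to 105 CPM. aqp-1, an aquaglyceroporin that lets glycerol pass, was higher as well (3-group log2 1.32, edgeR adjusted p = 0.011), with 108 to 243 CPM in Ag and 48.5 to 121 CPM in SiO2, against 34.5 to 77 CPM in Control. The number of fatty acid oxidation genes called was 2 without Control replicate 2 or 3, 3 without Control replicate 4, 4 without Ag replicate 7 or SiO2 replicate 13, and 5 without SiO2 replicate 14. The rise was not particular to fat breakdown. Of the 19 fatty acid desaturases and elongases, which make fat rather than burn it, 8 were higher at an unadjusted p under 0.05 (42.1%, against 11.9% of all tested genes). In the same list 2 were lower (10.5%, against 8.71%), and the median was 0.18. In the 3-group model 2 were called higher (elo-5 and fat-5), against 1.66% of all tested genes. Neither was of similar size. The 6 yolk protein genes had a median of 0.44 with none called. At an unadjusted p under 0.05, 2 of the 6 were higher (33.3%, against 11.9% of all tested genes).

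Genes of protein synthesis had small positive fold changes. Of 81 cytosolic ribosomal protein genes, 77 had a positive fold change (median 0.16, 0.20 in Ag and 0.13 in SiO2). Of the 81, 58 passed an unadjusted p of 0.05 as higher (71.6%, against 11.9% of all tested genes). In the 3-group model 3 were called higher, against 1.66% of all tested genes: rla-1, rpl-25.2 and rpl-11.1. None of the 81 differed between SiO2 and Ag. Their summed level was 80100, 80300, 82000, 81900 and 73900 CPM in Ag and 72100, 79000, 74400, 82300 and 71400 CPM in SiO2, against 67500, 73400, 67100, 68500 and 71700 CPM in Control. rla-1, an acidic protein of the ribosomal stalk, had 694 to 775 CPM in Ag and 659 to 757 CPM in SiO2, against 591 to 647 CPM in Control (3-group log2 0.23, edgeR adjusted p = 0.0477), and it overlaps arl-13 on the other strand. rpl-11.1, the variant of a ribosomal protein that has a second gene copy in the worm, changed most of the 3, with 490 to 751 CPM in Ag and 357 to 683 CPM in SiO2, against 235 to 420 CPM in Control (3-group log2 0.77, edgeR adjusted p = 0.0173). No ribosomal protein gene was called without Control replicate 2, 3 or 4, and 1 was called without Control replicate 1, Ag replicate 7 or SiO2 replicate 12. The mitochondrial ribosomal proteins (65 genes, 64 positive, median 0.17), aminoacyl-tRNA synthetases (31 genes, 30 positive, median 0.21) and proteasome subunits (33 genes, 33 positive, median 0.18) had no called member, with 21 (32.3%), 10 (32.3%) and 2 (6.06%) genes higher at an unadjusted p under 0.05, against 11.9% of all tested genes. The share of the proteasome was thus below that of all genes. With Kallisto estimates 2 mitochondrial ribosomal protein genes were called. For the proteasome the medians were 0.28 in Ag and 0.09 in SiO2. These medians remained positive in each alternative tried and with each sample left out, between 0.12 and 0.26.

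**Figure D5:**
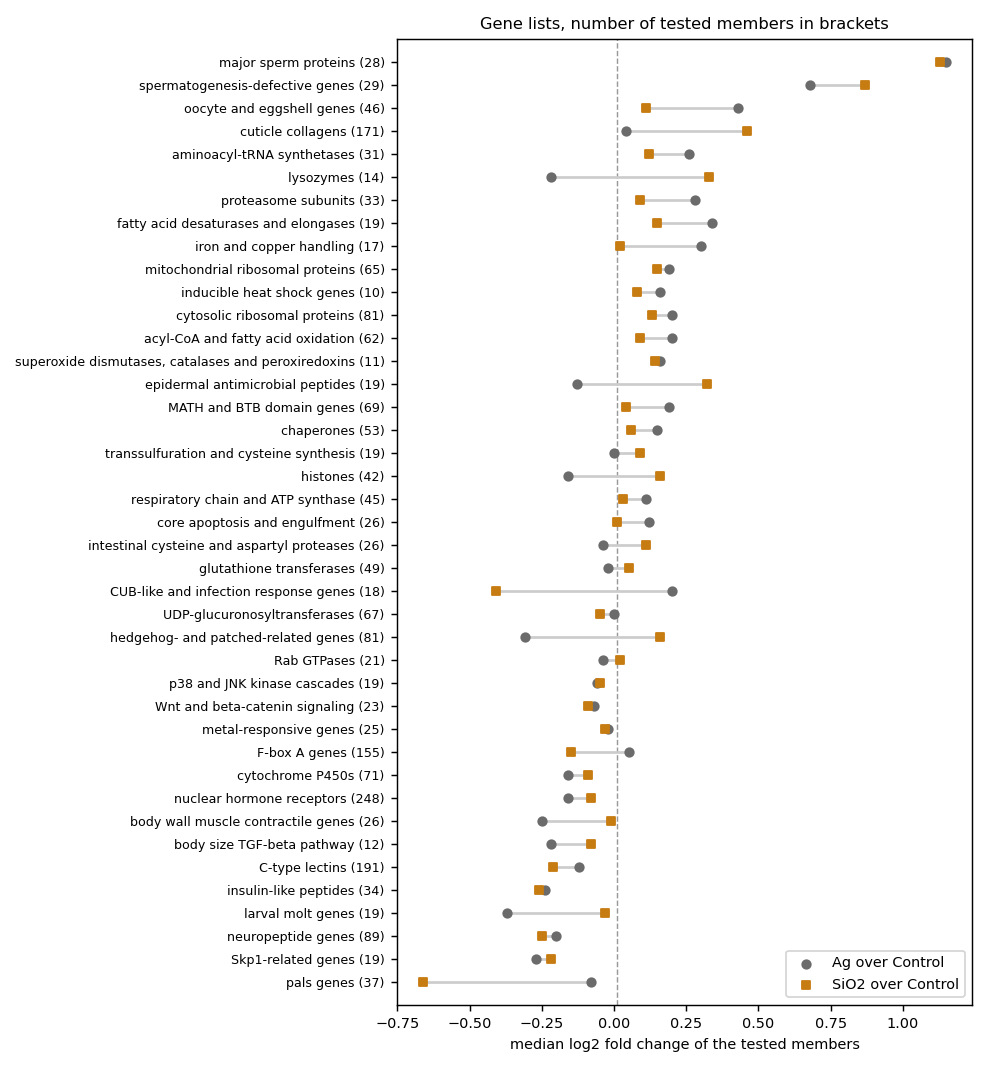
Median log2 fold change over Control of the tested members of each gene list with at least 10 members, for Ag (grey circles) and SiO2 (orange squares), ordered by the pooled median. The dashed line is the pooled median of all tested genes, 0.01, and the major sperm proteins (1.15 in Ag, 1.13 in SiO2) and pals genes (-0.08 in Ag, -0.66 in SiO2) lie at the ends.

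Immune and defence genes changed in part together and in part with one particle. Among 191 tested C-type lectins of 240, 3 were lower in the pooled test. In the 3-group model 13 were lower and 4 higher, against 1.56% and 1.66% of all tested genes, and 7 of the lower and 3 of the higher were of similar size in both exposures. The median was -0.13. clec-12 had 11.2, 8.46, 8.45, 8.70 and 13.6 CPM in Ag and 10.8, 13.2, 12.6, 8.80 and 5.06 CPM in SiO2, against 18.6, 26.2, 14.6, 21.2 and 16.9 CPM in Control, with no overlap. The family was not uniform: clec-230 rose, with 1.25 to 2.33 CPM in Ag and 1.79 to 6.18 CPM in SiO2, against 0.677 to 0.957 CPM in Control (3-group log2 1.57, edgeR adjusted p = 0.00691). The number lower was 7 without Control replicate 2, 8 without Control replicate 3 or 4 or Ag replicate 7, and 24 without Ag replicate 6. The number higher was 1 without Control replicate 3 or 4 and 2 without Control replicate 2. By contrast, 12 of 37 pals genes, a family tied to the response to intracellular pathogens, were lower in the 3-group model, against 1.56% of all tested genes. Of the 12, pals-8 alone met the size rule. Between SiO2 and Ag 15 of the 37 differed, against 3.43% of all tested genes. The medians were -0.08 in Ag and -0.66 in SiO2, and 7 pals genes were called lower without Control replicate 2 or 3. pals-8 had 0.682 to 1.90 CPM in Ag and 0.492 to 1.24 CPM in SiO2, against 1.82 to 3.44 CPM in Control. Of the 14 lysozymes 2 were lower in the 3-group model, and of the list of 18 CUB-like and infection response genes 1 was, against 1.56% of all tested genes. None of these met the size rule. No gene of the 3 thaumatins was called. The lists were collected by symbol, and the pooled call F55G11.7 was not a member of them.

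Genes of ubiquitin ligases gave a similar picture. Of 19 Skp1-related (skr) genes, whose products link F-box proteins to the ligase, 7 were lower in the 3-group model, against 1.56% of all tested genes. None of the 7 met the size rule, and the change was larger in Ag in each. skr-8 had 9.67, 8.73, 12.5, 13.6 and 14.3 CPM in Ag and 16.5, 21.2, 16.4, 18.7 and 11.8 CPM in SiO2, against 22, 20.6, 20.9, 20.8 and 23.5 CPM in Control. Its log2 fold change was -0.88 in Ag (edgeR adjusted p = 0.00391) and -0.35 in SiO2 (edgeR adjusted p = 0.312), and the pooled adjusted p was 0.0885. skr-10 and skr-12 had pooled log2 fold changes of -0.59 and -0.60 with adjusted p-values of 0.109 and 0.122 in edgeR. The number of skr genes called was 1 without Control replicate 3, 4 or 5 and 2 without Control replicate 2 or Ag replicate 7. In the F-box A family, 6 of 155 were lower and 1 higher, against 1.56% and 1.66% of all tested genes. Of the 6, fbxa-6, fbxa-75, fbxa-83 and fbxa-190 were of similar size in Ag and SiO2. The number of these genes called lower was 1 without Control replicate 3 and 2 without Control replicate 2. The summed level of the 42 tested histone genes was below every Control sample in 9 of 10 exposed samples, at 1100.0 to 1290.0 CPM in Ag and 1250.0 to 1480.0 CPM in SiO2, against 1470.0 to 1670.0 CPM in Control, but 2 were called lower (his-24 and his-32), both with the larger change in Ag, and the medians were -0.16 in Ag and 0.16 in SiO2.

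Cuticle collagens had larger fold changes in SiO2 than in Ag. In the 3-group model 25 of 171 were higher and 1 lower, against 1.66% and 1.56% of all tested genes. Of these, 8 higher and the lower one, col-135, met the size rule. Among the 8, col-73 and col-49 still differed between SiO2 and Ag by the direct test (edgeR adjusted p = 0.0197 and 0.0433). For col-73 the log2 fold change was 2.09 in Ag and 4.17 in SiO2, and for col-49 it was 2.35 and 4.62. Between SiO2 and Ag 42 of the 171 differed, against 3.43% of all tested genes. The medians were 0.04 in Ag and 0.46 in SiO2. col-73 had 5.20, 9.43, 1.74, 2.61 and 0.866 CPM in Ag and 34.9, 17.9, 10.1, 12.3 and 10.5 CPM in SiO2, against 1.29, 0.845, 0.547, 1.57 and 0.396 CPM in Control. Ag replicate 10 was within the range of Control and every SiO2 sample was above every Ag sample (3-group log2 3.13, edgeR adjusted p = 0.00473). col-101 was an example of equal size, at 0.57 in Ag and 0.58 in SiO2 (3-group edgeR adjusted p = 0.0267), and it overlaps drl-1 on the other strand. The number of collagens called higher was 7 without Control replicate 3, 10 without Control replicate 2 or 4 and 12 without Control replicate 5.

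Most neuropeptide genes had small negative fold changes, and few passed the test. Of 89 neuropeptide genes 79 had a negative fold change, with medians of -0.20 in Ag and -0.25 in SiO2, and 23 passed an unadjusted p of 0.05 as lower (25.8%, against 8.71% of all tested genes). In the 3-group model 3 were called lower, against 1.56% of all tested genes, namely nlp-13, nlp-15 and nlp-21, all of similar size. Exposed and Control samples did not overlap for 2 of the 89 with exposed samples higher and for 0 with them lower, against 0.327% and 0.561% of all tested genes. These were nlp-4 and nlp-39, which averaged under 1 CPM and were not called. nlp-13 had 37.2, 36.4, 33.8, 25.8 and 31.1 CPM in Ag and 38, 45.6, 38.5, 28.2 and 37.3 CPM in SiO2, against 51.1, 61.5, 52.8, 45.8 and 38.7 CPM in Control (3-group log2 -0.51, edgeR adjusted p = 0.0295). No neuropeptide gene was called lower without Control replicate 2, 3 or 4, and 1 was called without Control replicate 1, Ag replicate 7, 9 or 10 or SiO2 replicate 11, 13 or 14, with library size scaling or with the Kallisto estimates. Of 248 nuclear hormone receptors, a family of transcription factors that is large in the worm, 181 were negative (median -0.12), and 3 of the 248 were lower in the 3-group model, a smaller share than the 1.56% of all tested genes. At an unadjusted p under 0.05, 30 were lower (12.1%, against 8.71% of all tested genes). Of the receptors 1 was higher, and none was called lower without Control replicate 2, 3 or 4. Body wall muscle genes were negative in 24 of 26 (median -0.25 in Ag and -0.01 in SiO2), and none was called. At an unadjusted p under 0.05, 1 of the 26 was lower (3.85%), a smaller share than the 8.71% of all tested genes.

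Among the genes listed for metals and stress, a few members passed the test. mtl-2, a metallothionein, had 191, 174, 303, 180 and 182 CPM in Ag and 217, 219, 188, 167 and 115 CPM in SiO2, against 142, 148, 131, 108 and 123 CPM in Control. All exposed samples but SiO2 replicate 15 were above Control, and mtl-2 was called in the 3-group model with a similar size in both exposures (log2 0.57, edgeR adjusted p = 0.0474) but not in the pooled test (log2 0.57, SE 0.15, edgeR adjusted p = 0.0828). Taken singly, the log2 fold change was 0.66 in Ag (edgeR adjusted p = 0.0268) and 0.47 in SiO2 (edgeR adjusted p = 0.202). The list of 25 genes collected by symbol as metal-responsive had a median of -0.05, with 3 higher and 1 lower in the 3-group model (1.66% and 1.56% of all tested genes). Besides mtl-2, its calls were zip-10 and zip-3 (higher) and zip-8 (lower). The zip genes were collected by name and are not shown here to respond to metals. Of the calls in the list, mtl-2 alone bears on metals. The number higher was 1 without Control replicate 1, 2, 3 or 4, Ag replicate 7 or SiO2 replicate 13. cbs-1, cystathionine beta-synthase of the transsulfuration pathway, was lower in the 3-group model without overlap, with 60.3, 63.0, 84.4, 67.5 and 74.0 CPM in Ag and 76.0, 79.9, 88.9, 75.8 and 76.0 CPM in SiO2, against 92.1, 103, 91.9, 102 and 102 CPM in Control (3-group log2 -0.40, edgeR adjusted p = 0.0178). In the same list cth-1 was higher (3-group log2 0.81, edgeR adjusted p = 0.00149), with 1.44 in Ag and 0.17 in SiO2. Of the 19 members of this list 12 had a positive fold change. Of the 53 chaperones 3 were lower and 2 higher in the 3-group model, against 1.56% and 1.66% of all tested genes. The lower ones were pdi-2, dnj-27 and crt-1 of the endoplasmic reticulum, of similar size in both exposures. The mitochondrial hsp-6 and hsp-60 were higher, with the larger change in Ag. pdi-2, a protein disulfide isomerase, had 679 to 930.1 CPM in Ag and 871 to 1070.0 CPM in SiO2, against 987 to 1420.0 CPM in Control (3-group log2 -0.39, edgeR adjusted p = 0.0304), and no chaperone was called lower without Control replicate 3, 4 or 5 and 1 was without Control replicate 2, Ag replicate 7 or SiO2 replicate 12. Among the 49 glutathione transferases and the 11 superoxide dismutases, catalases and peroxiredoxins none was called in the 3-group model with edgeR. At an unadjusted p under 0.05, 4 glutathione transferases were higher (8.16%) and 1 was lower (2.04%), and 3 genes of the smaller list were higher (27.3%) and 1 was lower (9.09%), against 11.9% higher and 8.71% lower of all tested genes. Of 19 genes of the p38 and JNK kinase cascades 1 was higher and 1 lower in the 3-group model, against 1.66% and 1.56% of all tested genes. nsy-1, a kinase at the head of the p38 cascade of the worm's immune response, was slightly lower (3-group log2 -0.32, edgeR adjusted p = 0.0411), and it overlaps genes on both strands. mpk-2 was higher (3-group log2 0.75, edgeR adjusted p = 0.00734), with 1.30 in Ag and 0.21 in SiO2.

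Other genes named by the study had negative pooled fold changes and did not pass the pooled test. cav-1, which encodes a caveolin, had 227 to 416 CPM in Ag and 289 to 407 CPM in SiO2, against 404 to 508 CPM in Control (log2 -0.42, SE 0.13, edgeR adjusted p = 0.103). For let-756, a fibroblast growth factor, the pooled log2 fold change was -0.35 (edgeR adjusted p = 0.133), for the tachykinin receptor gene tkr-2 -0.68 (edgeR adjusted p = 0.135) and for the serotonin receptor gene ser-1 -0.36 (edgeR adjusted p = 0.197). mps-1, ver-1 and tax-4 had -0.56, -0.52 and -0.44, with edgeR adjusted p-values of 0.167, 0.226 and 0.328. che-1 had -0.84 on 1 to 11 counts per sample (edgeR adjusted p = 0.198).

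The genes of the 3-group common set were also located. Of the 224 higher genes 7 lay on chromosome X (3.12%, against 13.7% of all tested genes with a position) and 57 on chromosome IV (25.4%, against 16.7%). Of the 149 lower genes 26 lay on X (17.4%). Within 10000 bases of another gene of the set in the same direction lay 36 of the higher genes, in 18 pairs, which included msp-49 and msp-50, msp-10 and msp-56, and clec-204 and clec-205. Among the lower genes 13 lay in 6 runs, and the longest was F26F2.1, F26F2.3 and F26F2.4 on chromosome V between 20559162 and 20569996. F26F2.1 had 1.49 to 2.18 CPM in Ag and 0.762 to 3.39 CPM in SiO2, against 2.62 to 6.10 CPM in Control. These positions are given as a description.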

How the data were processed

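Whole-worm RNA of 15 C. elegans samples was sequenced. According to the methods and processing notes, reads were trimmed (Trim Galore 0.4.5), aligned to WBcel235 (HISAT2 2.1.0) and counted per gene (HTSeq 0.9.1, intersection-strict). The deposited counts are raw and not normalized, and strand use is not given in the sources used here. The authors also deposited estimated counts from Kallisto and tximport, which were rounded and used as an alternative.

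Counts were fitted in R 4.3.3 with edgeR 4.0.16 (checked on simulated data; TMM, quasi-likelihood F test, Benjamini-Hochberg over 19595 genes with at least 10 counts in total), with all exposed samples as a single group. A 3-group fit gave the fold changes of Ag and SiO2 and their difference. Log2 CPM used a prior count of 2. Symbols and positions came from Ensembl release 115 (46603 of 46778 genes matched). No 2 samples had identical counts.

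The comparison, the 46 gene lists and the tests were chosen with earlier results of these data known. Genes named are the common genes of at least 1 CPM with the smallest p (10 per direction) or largest change (5 per direction), up to 4 members of each list with the smallest p, 3 genes on each side of the threshold, the 5 calls that differed most between particles and those the study names. Other genes, such as WBGene00014770, clec-230, aqp-1, acs-19, glh-1, F55G11.6, nlp-15, fbxa-83, hsp-6, col-135, the F01D5 neighbours and the genes in runs, were chosen after their values were seen. Alternatives were RLE or library size normalization, a minimum total of 3 or 1, filterByExpr, the likelihood ratio test, DESeq2 1.42.0, the 3-group model, Kallisto estimates and leaving out each sample. The settings of the 3-group model were added after the data were seen.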

Additional observations from a re-analysis of the deposited data

Results flagged for a closer look

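Among the 17 called genes, 51 groups of 5 samples were checked for a sample that stands apart from its group, and chance alone marks about 1 in 20 such groups. In 3 groups a sample did. F01D5.1 was at 34.5 CPM in SiO2 replicate 15, where the other SiO2 samples had 14.6 to 18 CPM. F55G11.7 was at 3.00 CPM in Ag replicate 10, where the other Ag samples had 1.58 to 1.88 CPM. Y15E3A.4 was at 140 CPM in Control replicate 2, where the other Control samples had 103 to 113 CPM.

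Of the 17 genes, 3 changed by a different amount in the 2 exposures by a direct test (SiO2 minus Ag in the 3-group model, edgeR quasi-likelihood test with adjustment over all genes). The log2 difference was -1.32 for F55G11.7 (adjusted p = 0.041), -1.02 for clec-66 (adjusted p = 0.000874) and -0.79 for D1086.3 (adjusted p = 0.0433). F55G11.7 and clec-66 fell further in SiO2, and D1086.3 rose further in Ag.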

How the results depend on the processing

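The 17 calls of pooled exposure against Control became 631 in the 3-group model, 863 with the likelihood ratio test, 1236 with DESeq2, 29 with RLE normalization (10 higher and 19 lower), 28 with filterByExpr and 29 with Kallisto estimates, and the 16 genes of the common response became 373, 689, 984, 28, 27 and 28. In the first 4 of these settings and with Kallisto estimates all 17 remained called, and with filterByExpr 15 did. A size rule of 2/3 left 8 common genes. With single samples left out the calls ranged from 0 to 86 and the common response from 0 to 80. SiO2 against Ag (672 genes) gave 1415 with the likelihood ratio test and 1636 with DESeq2, and 369 (without SiO2 replicate 13) to 1960 (without SiO2 replicate 14) with single samples left out. The 3-group model calls ranged from 105 to 866 and its common genes from 51 to 560. Of 407 values of the 17 genes under alternatives, 285 kept the call, 122 lost it and none changed direction. Y70G10A.3 lost its call most often, being called in 4 of 15 fits with a sample left out, and mca-1 and W03F9.4 kept theirs in 10. RLE and library size scaling moved the median of all genes by 0.007 and -0.012 (log2). No paired analysis was possible because each replicate number occurs in a single group. Why the counts move this much was not tested.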
